A study of Mus musculus with 12 samples.

Results

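The 10 genes of serine, glycine and folate metabolism described here were measured in astrocytes sorted from mouse hippocampus. They are Phgdh, Psat1, Psph, Srr, Shmt1, Shmt2, Gldc, Slc6a9, Aldh1l1 and Mthfd1, chosen by gene name, and 10 of 10 were found among the 56791 gene names of the deposited table. All 10 reached a mean of 1 FPKM (fragments per kilobase and per library size) and were therefore among the 17540 genes tested. The mice were naive adult males with loxP sites in both copies of Tnfrsf1b, the gene of the TNF receptor TNFR2. The group labelled Ctrl had the genotype Tnfrsf1b fl/fl and no Cre. The group labelled cKO had the genotype GfapcreERT2:Tnfrsf1b fl/fl, in which a Cre recombinase that tamoxifen activates is driven by the Gfap promoter. The labels do not state the tamoxifen treatment, the age in weeks or whether animals were pooled, and the Gfap promoter is not active in every astrocyte and is active in other Gfap-expressing cells. Cells were sorted by ACSA-2, an astrocyte surface antigen. There were 12 libraries, with S1 and S2 libraries of A1, A2 and A8 (Ctrl) and A4, A9 and A10 (cKO). The labels define neither A nor S, so the S1 and S2 libraries of an A number were averaged and counted as 1 unit, which gave n = 3 units per genotype. Nothing in the labels says that the units were separate animals, so p-values measure only the spread between these units, which may be technical.

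Serine is made in astrocytes from an intermediate of glycolysis. Phgdh oxidises that intermediate, Psat1 adds the amino group and Psph removes the phosphate. Astrocytes are known as the main makers of L-serine in the adult brain and supply it to neurons, where serine racemase (Srr) turns part of it into D-serine, a co-agonist of NMDA receptors. Shmt1 in the cytosol and Shmt2 in mitochondria move a carbon from serine to tetrahydrofolate and release glycine. Gldc is the decarboxylase of the mitochondrial glycine cleavage system, and Slc6a9 encodes GlyT1, the glycine transporter that clears glycine around synapses. Aldh1l1 oxidises formyl-tetrahydrofolate and is a widely used astrocyte marker, and Mthfd1 interconverts the folate carriers of single carbons in the cytosol.

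The promoter sequences of the 4 most abundant members, Psat1, Phgdh, Aldh1l1 and Gldc, are shown because their transcripts led the pathway in these cells. They come from RefSeq on GRCm38.p6, run 5′ to 3′ on the gene's strand from 250 bases before to 50 bases after an annotated start, and cover the proximal promoter with the first transcribed bases. Capitals mark CCAAT boxes (CCAAT) and GC boxes (GGGCGG) on either strand, so that a box on the other strand reads ATTGG or CCGCCC. Psat1 has 2 annotated starts on chromosome 19, and Gldc lies on the same chromosome. The windows are chr3:98339920-98340219 (minus) for Phgdh, chr19:15925010-15925309 (minus) and chr19:15924573-15924872 (minus) for Psat1, chr6:90550543-90550842 (plus) for Aldh1l1 and chr19:30175392-30175691 (minus) for Gldc.
Phgdh: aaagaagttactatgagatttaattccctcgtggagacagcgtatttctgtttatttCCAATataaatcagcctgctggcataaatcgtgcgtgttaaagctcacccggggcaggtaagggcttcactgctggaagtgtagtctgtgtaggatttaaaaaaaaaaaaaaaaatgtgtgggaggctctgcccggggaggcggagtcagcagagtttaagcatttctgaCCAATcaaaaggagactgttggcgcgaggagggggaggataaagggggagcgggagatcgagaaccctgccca
Psat1, upstream start: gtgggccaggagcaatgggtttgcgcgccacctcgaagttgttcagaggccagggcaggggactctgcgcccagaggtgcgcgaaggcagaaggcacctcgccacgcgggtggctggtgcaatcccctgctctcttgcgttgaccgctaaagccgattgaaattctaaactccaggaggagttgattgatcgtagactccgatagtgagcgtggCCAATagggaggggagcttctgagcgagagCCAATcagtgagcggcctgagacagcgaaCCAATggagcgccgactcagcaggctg
Psat1, downstream start: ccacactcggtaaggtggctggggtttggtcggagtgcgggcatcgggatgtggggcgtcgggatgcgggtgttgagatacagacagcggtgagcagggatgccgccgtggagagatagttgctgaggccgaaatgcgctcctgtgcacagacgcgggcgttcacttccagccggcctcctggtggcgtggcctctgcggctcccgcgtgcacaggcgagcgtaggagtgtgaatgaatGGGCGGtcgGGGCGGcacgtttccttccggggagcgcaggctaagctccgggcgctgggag
Aldh1l1: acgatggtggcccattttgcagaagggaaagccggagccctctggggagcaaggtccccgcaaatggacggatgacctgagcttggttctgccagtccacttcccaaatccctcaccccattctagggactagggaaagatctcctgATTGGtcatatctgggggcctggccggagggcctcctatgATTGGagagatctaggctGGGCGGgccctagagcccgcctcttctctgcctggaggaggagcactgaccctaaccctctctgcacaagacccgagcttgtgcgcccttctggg
Gldc: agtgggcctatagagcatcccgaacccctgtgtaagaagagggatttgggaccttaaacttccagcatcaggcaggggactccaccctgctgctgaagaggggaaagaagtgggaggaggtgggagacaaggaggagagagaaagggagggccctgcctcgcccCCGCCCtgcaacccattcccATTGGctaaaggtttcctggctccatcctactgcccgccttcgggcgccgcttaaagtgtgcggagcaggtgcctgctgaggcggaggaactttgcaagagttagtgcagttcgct

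The upstream Psat1 window held 3 CCAAT boxes and no GC box, the downstream Psat1 window held 2 GC boxes and no CCAAT box, and the Phgdh window held 2 CCAAT boxes. The Aldh1l1 window held 2 CCAAT boxes and 1 GC box, and the Gldc window held 1 of each. All 10 members had at least 1 RefSeq start, 13 windows in all. Of these 13, 7 held a CCAAT box and 8 a GC box, against 37.4% and 35.7% of all 32851 windows of the same length. The CARE letters that ATF4 binds with its partners (TGATGNAA) were in 0 of 13 windows and in 3.97% of all windows, and the E-box letters CACGTG were in 0 of 13 and in 7.15%. Both strands were searched for every motif. These are matches of letters in short windows, and binding was not measured.

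The sort, the depth and the labels were examined first. All 16 astrocyte markers were present, and their summed level was 5365 to 6543 FPKM in the Ctrl units and 6196 to 7099 FPKM in the cKO units, which overlap. The 12 oligodendrocyte markers summed to 1096 to 2354 FPKM in Ctrl and 313 to 753 FPKM in cKO, with no overlap, and 12 of 12 were lower in cKO on average. The oligodendrocyte precursor list (127 to 168 FPKM against 77.6 to 106 FPKM) and the neuron list (18.2 to 24.6 FPKM against 9.78 to 17.8 FPKM, with 6 of 10 genes under 1 FPKM) were also lower in all cKO units, and the microglia list was higher (15.2 to 19.1 FPKM against 21.2 to 37.7 FPKM, with 5 of 8 genes under 1 FPKM). The 16 immediate-early genes, which respond to tissue dissociation, overlapped between the groups at 353 to 1312 FPKM in Ctrl and 263 to 628 FPKM in cKO, with the lowest Ctrl sum in A8, and 16 of 16 were lower in cKO on average. The endothelial, mural, ependymal and progenitor lists overlapped between the groups in their sums, although 6 of 6 tested endothelial genes (median difference -0.62) and 7 of 7 ependymal genes (median -0.50) had lower means in cKO. The erythrocyte sums were apart, 0.102 to 1.49 FPKM in Ctrl and 1.804 to 2.31 FPKM in cKO, with Hba-a1, Hba-a2 and Hbb-bt at 0. The part of these other cell types and of dissociation in the members' values was not tested except where a value is given beside a member. The S1 libraries had a recovered depth between 17311872 and 22025823 reads, and the S2 libraries were deeper, between 28096484 and 35323322 reads. Tnfrsf1b was listed at 0 in 9 of 12 libraries and passed 3 reads in 3 libraries, 1 of them Ctrl and 2 of them the libraries of A4 labelled cKO, with at most 22 reads. It therefore does not check the labels. In bulk RNA from sorted cells, fewer cells of a type and less RNA per cell cannot be told apart.

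The 10 members covered a wide range of levels in these astrocytes. Psat1 was highest at 58.4 ± 6.73 FPKM (SD, n = 6 units), and 2.34% of the genes tested had a higher mean. Phgdh followed at 54.3 ± 3.57 FPKM, Aldh1l1 at 43.8 ± 3.82 FPKM and Gldc at 42.6 ± 8.99 FPKM. These 4 genes, which carry the first steps of serine synthesis, the astrocyte folate enzyme and the glycine decarboxylase, all lay within the top 3.49% of genes tested. Slc6a9 reached 20.9 ± 6.12 FPKM and Mthfd1 17.9 ± 3.46 FPKM. Lower still were Srr at 9.76 ± 1.79 FPKM, Psph at 8.85 ± 2.11 FPKM and Shmt2 at 5.67 ± 1.69 FPKM. Shmt1 was lowest at 1.64 ± 0.431 FPKM, with 84.3% of the tested genes above it. Between 81 and 10634 reads per library stood behind these values, the fewest for Shmt1 and the most for Gldc. Of the whole recovered counts from 1 to 20, 72.55% to 80.42% per library were even. The number of separate fragments may therefore be smaller than the reads given here.

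**Figure D1:**
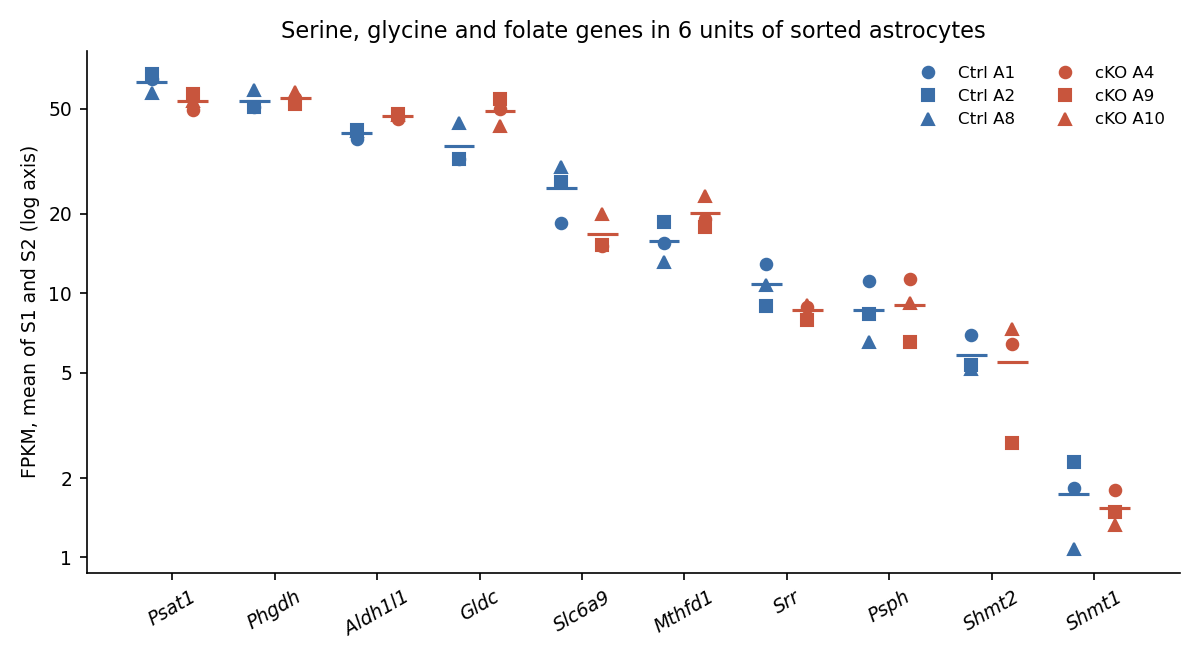
FPKM of each of the 10 members in the 6 units (points, mean of the S1 and S2 libraries; log axis), with the Ctrl units in blue, the cKO units in red and the group mean as a line. Genes run from Psat1 at 58.4 FPKM to Shmt1 at 1.64 FPKM, and the 2 groups are apart only for Psat1 (cKO lower) and Aldh1l1 (cKO higher) among these 10.

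At 5 of the 9 steps in this order the higher gene exceeded the lower in 6 of 6 units. These steps were Phgdh above Aldh1l1, Gldc above Slc6a9, Mthfd1 above Srr, Psph above Shmt2 and Shmt2 above Shmt1. An exact two-sided sign-flip permutation test gave p = 0.03125 for each, the smallest that 6 units allow, and an adjusted p of 0.0563 over the 9 steps, so none passed 0.05 after adjustment. Psat1 exceeded Phgdh in 3 of 6 units (exact p = 0.375), Aldh1l1 exceeded Gldc in 3 of 6 (exact p = 0.531), Slc6a9 exceeded Mthfd1 in 3 of 6 (exact p = 0.531) and Srr exceeded Psph in 4 of 6 (exact p = 0.406). The split for Slc6a9 and Mthfd1 ran by genotype, with Slc6a9 above Mthfd1 in the 3 Ctrl units and below it in the 3 cKO units, a pattern noticed after the values were seen and given without a test. The 6 units pool both genotypes, and the order was set from the same means whose steps were compared, so these p-values describe the steps and are no independent test of their direction. FPKM depends on the gene length used, and with the length of the longest principal transcript in place of the deposited exonic length Psph rose to 22.1 FPKM and passed Srr at 12.03 FPKM, and Gldc at 68.9 FPKM passed Aldh1l1 at 47.3 FPKM.

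Members also differed in how much they varied among units. Phgdh was the steadiest, with a coefficient of variation of 6.58% over the 6 units, and Shmt2 the most variable at 29.7%, followed by Slc6a9 at 29.3%. The spread of Shmt2 came mostly from A9 (cKO), at 2.70 FPKM against 5.19 to 7.34 FPKM in the other units. The genes whose centred profile over the 6 units was nearest to that of Phgdh were Kcnma1, Donson and Zfp280d, with root mean square differences of 0.02, 0.03 and 0.03 on the log2 scale. For Gldc they were Arsk, Lonrf3 and Fut9, at 0.03, 0.04 and 0.07. These are the nearest among 17540 tested genes over only 6 units, and Phgdh itself varied little (SD 0.09 on the log2 scale). No baseline for such differences was computed, and no shared regulation is read from them.

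No member passed the genotype test. The comparison asks whether the cKO genotype goes with another level of these transcripts. Loss of TNFR2 was not shown in these libraries. The Ctrl group had no Cre, so carrying Cre and losing the receptor cannot be told apart. In the limma fit on log2(FPKM + 1), 0 of 10 members and 0 of 17540 genes had a Benjamini-Hochberg adjusted p under 0.05, a background of 0%. At an unadjusted p under 0.05, 1 member was higher in cKO (Gldc) and 1 lower (Slc6a9), where 2.98% of all tested genes were higher and 4.71% lower. By the criterion that the groups do not overlap, 1 member was higher (Aldh1l1) and 1 lower (Psat1), where 5.73% of all tested genes were higher and 7.26% lower. With 10 members, 1 in each direction is the smallest count above 0, and nothing is read from it. The median difference of the members was -0.02 and that of all genes tested was -0.01, with 5 members above 0 and 5 below.

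The serine synthesis enzymes showed no called difference. Phgdh, the entry enzyme, was 51.0, 50.7 and 59.1 FPKM in Ctrl (A1, A2, A8) and 55.2, 52.1 and 57.7 FPKM in cKO (A4, A9, A10). The groups overlap over their whole range, and the difference was 0.04 on the log2 scale (95% interval -0.22 to 0.30, limma adjusted p = 0.974).

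Psat1, the aminotransferase, was 64.8, 67.5 and 57.7 FPKM in Ctrl and 49.5, 57.0 and 53.8 FPKM in cKO. All cKO units lay below all Ctrl units, although A9 at 57.0 FPKM and A8 at 57.7 FPKM are nearly equal. The mean was 63.3 ± 5.07 FPKM in Ctrl against 53.4 ± 3.76 FPKM in cKO (SD, n = 3 each), a difference of -0.24 (95% interval -0.51 to 0.03, limma adjusted p = 0.706). The Psat1 difference was -0.19 without A4, -0.30 without A8, -0.44 with each unit centred on the astrocyte markers and -0.027 with the oligodendrocyte marker score of each unit as a covariate, a fit chosen after seeing the data. All Ctrl units were above all cKO units in that score, so the fit cannot cleanly separate score and genotype. Psph, the phosphatase, was 11.1, 8.37 and 6.53 FPKM in Ctrl and 11.3, 6.56 and 9.20 FPKM in cKO, with a difference of 0.05 (95% interval -0.54 to 0.65, limma adjusted p = 0.984). Psph shares 452 exonic bases with Cct6a on the opposite strand, and the strand setting of the counting is not given in the sources used here. Its recovered reads came out at fractions in 8 of 12 libraries. Those of Slc6a9 did so in 8, those of Srr, Aldh1l1 and Mthfd1 in 6 each, and those of Shmt2 in 5. Phgdh, Psat1 and Gldc, which overlap no other gene, had 0 such libraries, as had Shmt1, which shares 184 exonic bases with Smcr8. Fractions can arise where a read is divided among genes, but their source was not tested. The levels of Psph, Srr, Slc6a9, Aldh1l1, Mthfd1 and Shmt2 are therefore uncertain.

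Srr, which makes D-serine, was 12.9, 8.95 and 10.7 FPKM in Ctrl and 8.91, 7.94 and 9.08 FPKM in cKO. The 2 highest values were Ctrl units, while A2 (Ctrl) fell among the cKO units. The difference was -0.29 (95% interval -0.68 to 0.11, limma adjusted p = 0.774). It was -0.17 without A1 and -0.48 with each unit centred on the astrocyte markers. Srr shares 1240 exonic bases with Tsr1 on the opposite strand, whose own difference was 0.09 (limma adjusted p = 0.969). Dao, which degrades D-serine, was under 1 FPKM and was not tested.

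The serine hydroxymethyltransferases were among the least abundant members, and the mitochondrial form exceeded the cytosolic form in every unit. Shmt1 was 1.84, 2.29 and 1.08 FPKM in Ctrl and 1.81, 1.49 and 1.33 FPKM in cKO, with a difference of -0.08 (95% interval -0.77 to 0.60, limma adjusted p = 0.980). Shmt2 was 6.98, 5.38 and 5.19 FPKM in Ctrl and 6.45, 2.70 and 7.34 FPKM in cKO, with a difference of -0.15 (95% interval -0.92 to 0.62, limma adjusted p = 0.966). Both intervals are wide, and the groups overlap in both genes. The ratio of Shmt2 to Shmt1 ran from 1.81 to 5.52 over the 6 units, with a log2 value of 1.34 ± 0.34 in Ctrl against 1.27 ± 0.64 in cKO (exact permutation p = 0.8).

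The glycine genes Gldc and Slc6a9 had the largest differences among the members on the values as deposited, in opposite directions, and the value of Gldc depended on the scaling and the covariate. Gldc, which breaks glycine down, was 32.2, 32.4 and 44.0 FPKM in Ctrl and 49.7, 54.4 and 43.1 FPKM in cKO. A4 and A9 (cKO) were above every Ctrl unit, and A10 (cKO) was just under A8 (Ctrl). The means were 36.2 ± 6.77 FPKM and 49.1 ± 5.69 FPKM (SD, n = 3 each), a ratio of 1.35. The difference on the log2 scale was 0.44 (95% interval 0.05 to 0.82, limma adjusted p = 0.601). The oligodendrocyte sum moved with the genotype, as given above, and the Gldc difference with the oligodendrocyte score in the fit was -0.084 (limma adjusted p = 0.964). Centred on the astrocyte markers it was 0.24, smaller in size than those of Slc6a9, Srr, Psat1, Shmt2 and Shmt1 on that scale.

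Slc6a9, the glycine transporter GlyT1, was 18.6, 26.5 and 30.1 FPKM in Ctrl and 15.1, 15.2 and 20.01 FPKM in cKO. A1 (Ctrl) fell between the cKO units, and the other Ctrl units lay above all of them. The means were 25.0 ± 5.89 FPKM and 16.8 ± 2.79 FPKM (SD, n = 3 each), and the difference was -0.53 (95% interval -1.03 to -0.04, limma adjusted p = 0.618). The Slc6a9 difference with the oligodendrocyte score in the fit was -0.52, under the same limit as for Gldc. Centred on the astrocyte markers, which moved the median of all genes tested to -0.20, the Slc6a9 difference was -0.73 (limma adjusted p = 0.312). Slc6a9 shares 1429 exonic bases with Ccdc24 and 511 with Gm17114, both on the opposite strand. Gm17114 differed by -0.61 (limma adjusted p = 0.627) and Ccdc24 by -0.20 (limma adjusted p = 0.882), and reads in the shared bases cannot be assigned to 1 of these genes with certainty.

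**Figure D2:**
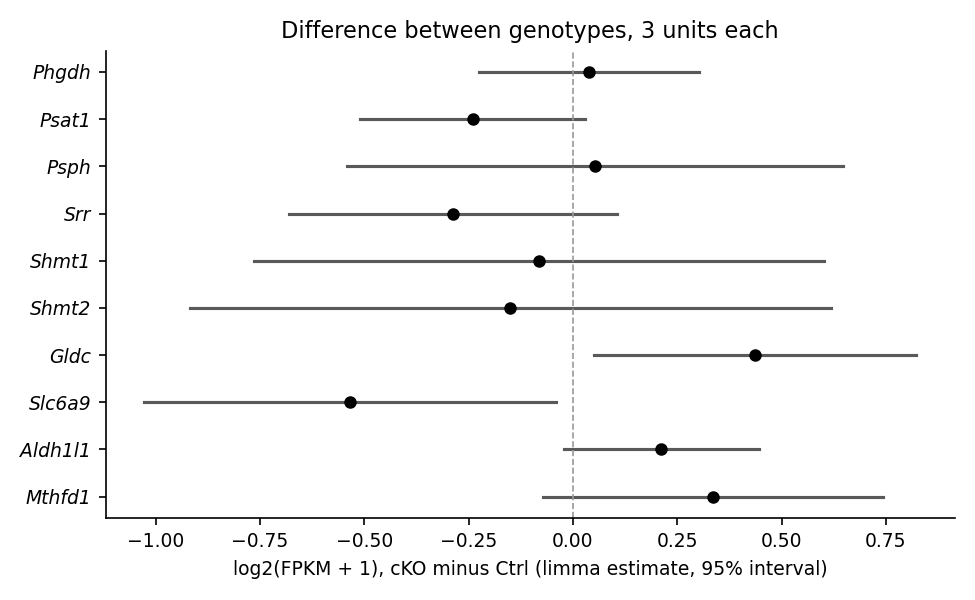
Difference between the genotypes for each member, as cKO minus Ctrl on the log2(FPKM + 1) scale, with the limma estimate as a point and its unadjusted 95% interval as a line (3 units each). The intervals of Gldc (0.05 to 0.82) and Slc6a9 (-1.03 to -0.04) leave out 0, the other 8 include it, and no member passed after adjustment over 17540 genes.

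Set against each other within a unit, the 2 glycine genes separated the groups. The Slc6a9 to Gldc ratio was 0.576, 0.817 and 0.683 in A1, A2 and A8 and 0.303, 0.280 and 0.465 in A4, A9 and A10. Every Ctrl unit was above every cKO unit, and the log2 ratio was -0.53 ± 0.24 in Ctrl against -1.50 ± 0.38 in cKO (SD, n = 3 each). The difference was -0.97, with an exact two-sided permutation p of 0.1, the smallest that 3 units against 3 can give, and 0.333 after adjustment over the 5 ratios compared. This design cannot pass 0.05 for a single ratio. The ratio joins the 2 members whose differences were largest and opposite, and the members were chosen with earlier results of these data known. Its separation is therefore no result independent of those differences, and the limits given for Gldc and Slc6a9 apply to it. Because A4, labelled cKO, held Tnfrsf1b reads in both libraries and A8 stood apart from the other Ctrl units in its oligodendrocyte and immediate-early sums, the differences were also taken without each. Gldc differed by 0.42 without A4 and 0.58 without A8, Slc6a9 by -0.47 and -0.39, and the log2 ratio by -0.89 and -0.98.

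**Figure D3:**
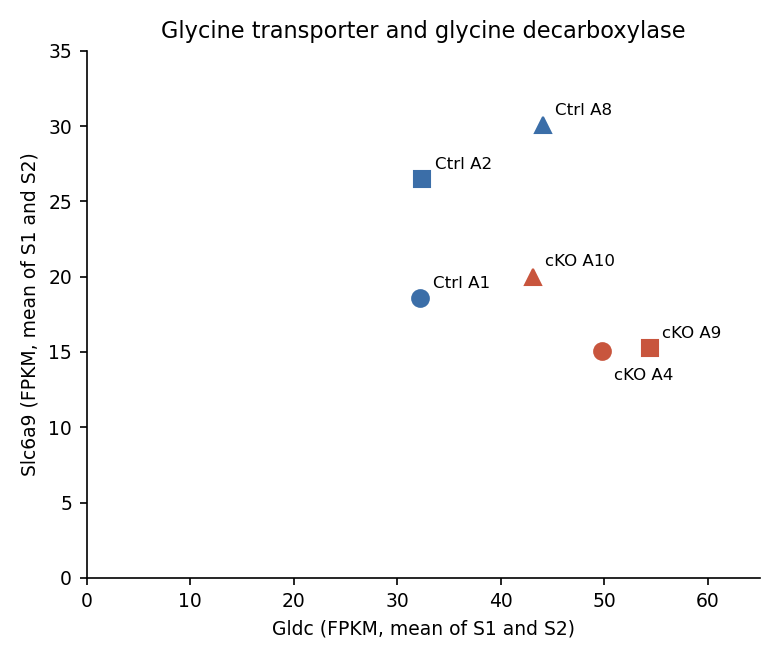
Slc6a9 against Gldc in the 6 units (FPKM, mean of the S1 and S2 libraries; Ctrl in blue, cKO in red). The Ctrl units lie toward the upper left and the cKO units toward the lower right, with Slc6a9 to Gldc ratios of 0.576 to 0.817 and 0.280 to 0.465.

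Of the other ratios, Psat1 to Phgdh had a log2 value of 0.24 ± 0.23 in Ctrl against -0.04 ± 0.15 in cKO, a difference of -0.28 (exact permutation p = 0.2, adjusted 0.333). Psph to Phgdh differed by 0.01 (exact permutation p = 1). The groups overlapped for both.

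The folate enzymes Aldh1l1 and Mthfd1 had higher means in cKO, and neither passed the test. Aldh1l1 was 38.5, 41.6 and 41.4 FPKM in Ctrl and 45.7, 47.8 and 47.6 FPKM in cKO. The groups did not overlap and each was tight, with means of 40.5 ± 1.73 FPKM and 47.0 ± 1.14 FPKM (SD, n = 3 each). The difference was 0.21 (95% interval -0.02 to 0.45, limma adjusted p = 0.699). Among the 16 astrocyte markers, 14 were also above 0, with a median difference of 0.20, and with each unit centred on these markers the Aldh1l1 difference was 0.017. Without A4 it was 0.23, and without A8 also 0.23. Aldh1l1 shares 499 exonic bases with Gm15756 on the opposite strand, which differed by 0.06 (limma adjusted p = 0.979). It also shares 105 with Gm45901 on the same strand, which was under 1 FPKM on average and was not tested.

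Mthfd1 was 15.5, 18.7 and 13.1 FPKM in Ctrl and 19.2, 17.8 and 23.3 FPKM in cKO. A2 (Ctrl) lay above A9 (cKO), and otherwise the cKO units were higher. The difference was 0.34 (95% interval -0.07 to 0.74, limma adjusted p = 0.731). It was 0.22 without A8, 0.46 without A2, 0.14 with the units centred on the astrocyte markers and 0.85 with the oligodendrocyte score as a covariate, under the same limit as for Gldc. Aldh1l2, the mitochondrial relative of Aldh1l1, was 1.47, 1.31 and 0.571 FPKM in Ctrl and 0.494, 0.379 and 1.21 FPKM in cKO, too low to enter the test. Aldh1l1 exceeded it 26.2-fold to 126-fold over the 6 units, and the log2 ratio differed by 0.54 between genotypes (exact permutation p = 0.2, adjusted 0.333).

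The genes around the members gave the same picture of no call. Of 93 related genes, 66 were tested, 0 passed the limma test, with 0.333 as the lowest adjusted p. Unadjusted p fell under 0.05 for 2 higher and 5 lower genes, where all tested genes gave 2.98% and 4.71%. Groups were apart for 7 higher and 4 lower genes, where all tested genes gave 5.73% and 7.26%. The median difference was 0.06, beside -0.01 for all genes. The lists were chosen with earlier results of these data known.

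In the list of serine transport and use, 16 of 20 genes were tested, with 9 above 0 and 7 below. Slc38a2, a sodium-coupled transporter of small neutral amino acids, was 31.7 ± 11.5 FPKM in Ctrl against 14.7 ± 2.58 FPKM in cKO, a difference of -1.001 (limma adjusted p = 0.446). Serinc5, a membrane protein of the serine incorporator family, was 26.9, 31.9 and 11.7 FPKM in Ctrl and 8.48, 9.20 and 11.6 FPKM in cKO. It differed by -1.09 (limma adjusted p = 0.516). Slc1a4, the ASCT1 transporter that carries serine across the astrocyte membrane, was 81.0, 65.8 and 89.5 FPKM in Ctrl and 96.2, 110 and 107 FPKM in cKO. Its groups were apart and the difference was 0.41 (limma adjusted p = 0.551). Slc38a2 and Serinc5 also had their Ctrl and cKO units apart, although Serinc5 was nearly equal in A8 (Ctrl) and A10 (cKO). In both genes the units fell in the same order as in the oligodendrocyte sums, from A2 through A1, A8, A10 and A9 to A4. The part of those cells in the values of Slc38a2 and Serinc5 was not tested.

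In the glycine list, 10 of 18 genes were tested, with 6 above 0 and 4 below. Gatm, which joins glycine and arginine in the first step of creatine synthesis, was 118, 116 and 74.2 FPKM in Ctrl and 40.6, 42.0 and 59.4 FPKM in cKO. All Ctrl units were above all cKO units, and the difference was -1.09 (SE 0.23, limma adjusted p = 0.333), the lowest adjusted p of the related genes. Gatm is also strongly expressed in oligodendrocytes, whose 12 markers were lower in cKO by a median of -1.75; the part of those cells in the Gatm value was not tested. The partners of Gldc in glycine cleavage, Amt and Gcsh, were at 16.6 FPKM and 21.8 FPKM in Ctrl and at 16.6 FPKM and 21.8 FPKM in cKO. Pipox, a peroxisomal sarcosine oxidase that yields glycine, differed by 0.68 (limma adjusted p = 0.621), and Gcat, which forms glycine from a product of threonine, by 0.49 (limma adjusted p = 0.774, from 2 rows that share the symbol).

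In the folate list, 17 of 23 genes were tested, with 12 above 0, a median of 0.11 and 0 at an unadjusted p under 0.05. Slc46a1, the proton-coupled folate transporter, differed by 0.51 (limma adjusted p = 0.701), Mtfmt, which formylates the mitochondrial initiator tRNA, by 0.57 (limma adjusted p = 0.720) and Slc19a1, the reduced folate carrier, by 0.45 (limma adjusted p = 0.721). Among the 17 tested, Mtfmt, Slc19a1 and Mthfd2l had groups apart, all 3 higher in cKO, where 5.73% of all tested genes were. Mthfd2, Mthfd1l and Tyms, which serve one-carbon supply in growing cells, were each under 1 FPKM on average and were not tested. Tyms, at 0.361, 0.425 and 0.0172 FPKM in Ctrl and 1.04, 0.601 and 0.692 FPKM in cKO, was also apart at these low levels.

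In the methionine list, 9 of 13 genes were tested and no groups were apart. Mat2a, which makes S-adenosylmethionine, was 62.9 ± 5.90 FPKM in Ctrl against 49.1 ± 7.59 FPKM in cKO, a difference of -0.36 (limma adjusted p = 0.629). Adk differed by 0.31 (limma adjusted p = 0.740) and Ahcy, which hydrolyses S-adenosylhomocysteine, by 0.58 (limma adjusted p = 0.772).

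ATF4 is the transcription factor known to drive Phgdh, Psat1 and Shmt2 when amino acids are short. Of its list, 15 of 20 genes were tested, with 8 above 0 and 7 below. Atf4 itself was 32.0 ± 7.02 FPKM in Ctrl against 26.96 ± 1.07 FPKM in cKO (SD, n = 3 each). Ddit3, a stress-induced target, differed by -0.95 (limma adjusted p = 0.344). That value sums 2 rows with the symbol, and it is uncertain because a row of 105 bases gave 18.0 ± 6.46 FPKM in Ctrl against 7.85 ± 3.40 FPKM in cKO, while the row of 1713 bases gave 9.47 ± 3.53 FPKM and 6.22 ± 1.58 FPKM with overlapping groups. Ddit4 differed by -0.68 (limma adjusted p = 0.724) and Slc3a2 by 0.20 (limma adjusted p = 0.764). Among the 15 tested, 2 genes had groups apart and higher in cKO (Nupr1 and Slc3a2) and 1 lower (Ddit3, with its rows summed). All tested genes gave 5.73% higher and 7.26% lower. Asns, Trib3 and Chac1, further ATF4 targets, were each under 1 FPKM on average and were not tested. Asns, at 1.14, 0.592 and 1.07 FPKM in Ctrl and 0.423, 0.175 and 0.495 FPKM in cKO, was apart and lower in cKO. Tyms, named above, was apart in the other direction. The share of untested genes with groups apart was not counted, so nothing is read from either.

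**Figure D4:**
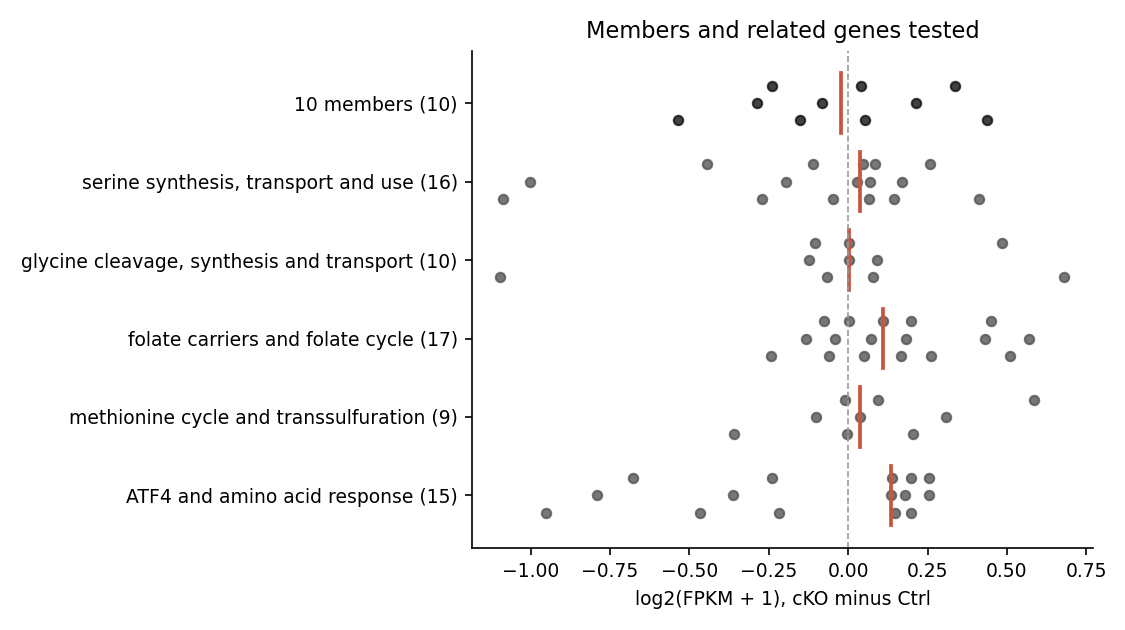
Difference between the genotypes for the 10 members and for the tested genes of each related list (points; cKO minus Ctrl, log2(FPKM + 1)), with the list median as a red line and the number tested in parentheses. The medians lie near 0, from -0.02 for the members to 0.14 for the ATF4 list, and the points reach from -1.09 to 0.68.

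The S1 and S2 libraries of an A number differed in Phgdh. Phgdh was higher in S2 in 6 of 6 units, with pairs (S1 then S2) of 48.6 and 53.4 FPKM in A1, 49.0 and 52.4 in A2, 54.5 and 63.7 in A8, 51.7 and 58.6 in A4, 50.6 and 53.5 in A9, and 54.4 and 61.1 in A10. With each A number taken as a block, the mean difference was 0.15 on the log2 scale (SE 0.02, limma adjusted p = 0.0175), while the S1 and S2 depths did not overlap. It was the only 1 of 10 members called, where 1.13% of tested genes were higher and 0.257% lower in S2. The call was lost with upper-quartile scaling. The other 9 members differed between S1 and S2 by a mean of at most 0.04, and no interaction of genotype with S1 and S2 was called for any member (lowest limma adjusted p = 0.962, with 0 genes called, 881 at an unadjusted p under 0.05).

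**Figure D5:**
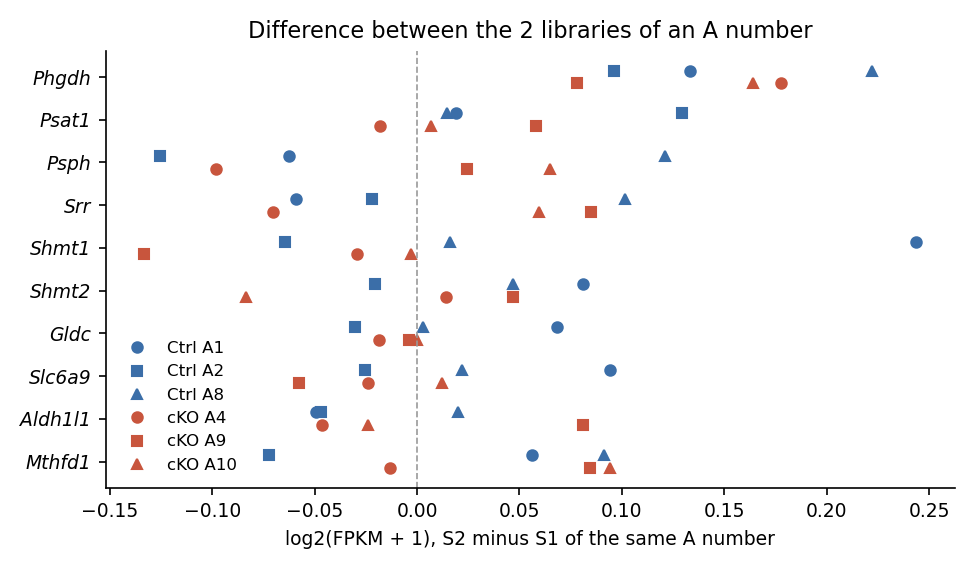
Difference between the S2 and the S1 library of each A number for the 10 members (log2(FPKM + 1), S2 minus S1; Ctrl in blue, cKO in red). The 6 Phgdh points all lie above 0, between 0.08 and 0.22, whereas each of the other members has points on both sides of 0.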

How the data were processed

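RNA was sequenced as paired reads of 125 bases after SMART-Seq V4 amplification, per the labels' protocols. The submitters' processing notes name FastQC, STAR, featureCounts and DESeq2 and the builds mm10 and GRCm38, without roles. The authors deposited FPKM values for 56941 genes in 12 libraries with the exonic length in bases. Depth was recovered from the steps between low values. Of the recovered counts of all genes with reads, 82.8% to 86.3% per library came out whole (tolerance 0.02). The reads are therefore estimates, and floors cover counting error only. The deposited gene spans matched GENCODE M21 on GRCm38 for 2.8% of 52000 genes, so the table's coordinates mostly differ from the build that the notes name, and they are not printed. Rows sharing a symbol (147 symbols) were summed.

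S1 and S2 were averaged on log2(FPKM + 1) per A number. Their r across genes was 0.980 to 0.984, against 0.788 to 0.896 between A numbers. Replicate numbers mark S1 and S2 and pair no Ctrl with a cKO unit. Fold changes on this scale understate low genes. Genes with a mean of at least 1 FPKM were fitted with limma 3.58.1 in R 4.3.3 (eBayes with a trend, two-sided, Benjamini-Hochberg over 17540 genes, threshold 0.05). Ratios used an exact permutation test over 20 arrangements, and the order of levels a sign-flip test over 64 patterns (Python 3.11.15, scipy 1.17.1).

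The members and lists were chosen with earlier results of these data known. The genes named are the 10 members, Aldh1l2, Tnfrsf1b, the 3 smallest unadjusted p of each related list, and the 3 nearest profiles to Phgdh and to the member of smallest p; others were named after their values were seen. The alternatives were another pseudocount, other filters and scalings, eBayes without a trend, log2 of the mean, S1 or S2 alone, models of 12 libraries, limma voom on recovered reads and each A number left out.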

Additional observations from a re-analysis of the deposited data

Results flagged for a closer look

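The S2 minus S1 difference of Gldc in A1 (Ctrl) was 0.0682 on the log2 scale and stood apart from the other 5 units, which lay between -0.03 and 0.00278. The gap took up 0.666 of the range of the 6 units, above Dixon's critical value at 95%. In A1 the values were 31.4 FPKM (S1) and 33.0 FPKM (S2). Of 10 members tested this way 1 stood out, and chance flags about 1 in 20 groups. The genotype difference of Gldc was 0.44 on the same scale.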

How the results depend on the processing

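Under 19 alternatives of the genotype fit, 0 of 10 members were called in each, and the lowest adjusted p of any member was 0.160 (Gldc without A8). Psat1, Srr, Slc6a9, Aldh1l1 and Mthfd1 kept their direction in all 19, and the other 5 changed sign in at least 1. Centring on astrocyte markers, which moved the median of all genes from -0.01 to -0.20, gave -0.16 for Phgdh and -0.14 for Psph. The oligodendrocyte score as a covariate, chosen after seeing the data, gave -0.054 for Phgdh, 0.16 for Shmt1, 0.30 for Shmt2 and -0.084 for Gldc. That score does not overlap between the genotypes, so the fit cannot cleanly separate the score from the genotype. Leaving out 1 A number gave ranges of -0.11 to 0.24 for Psph, -0.27 to 0.066 for Shmt1 and -0.37 to 0.21 for Shmt2, and, for the log2 ratios, -0.35 to 0.28 for Shmt2 to Shmt1 and -0.22 to 0.22 for Psph to Phgdh. The sign changed without A4 or A8 for Psph and its ratio, without A2 for Shmt1, without A9 for Shmt2, and without A1, A8 or A9 for the Shmt2 to Shmt1 ratio. In S1 alone the Psph to Phgdh ratio differed by -0.0013. The causes were not tested.

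With the 12 libraries and the A number as a random effect (correlation 0.915), 1 related gene was called, Gatm (adjusted p = 0.0214), and with the replicate block added 1, again Gatm (adjusted p = 0.0354); over all genes 112 and 80 were called, against 0 in the fit of 6 units and 0 to 1 with an A number left out (1 without A1). These replicate numbers pair libraries of 1 A number, not animals across genotypes. Phgdh between S1 and S2 was lost, with 0 members called, without the block on the A number and with upper-quartile scaling. Of the 9 steps in the order of levels, 7 were kept with the principal transcript length, which was chosen after seeing the data, and 8 to 9 with an A number left out (8 without A2). Depth limits Shmt1 most, at 81 reads in its lowest library.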
